A study of Mus musculus with 8 samples.

Results

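ASXL1 islands are the stretches of the genome over which reads from an ASXL1 chromatin immunoprecipitation were enriched in wild-type stromal cells of mouse bone marrow. All islands on the 19 autosomes of the ASXL1 list were taken, which gave 17065 islands of the 158177 islands in the 7 lists of the series, and they were set against the wild-type H3K4me3, H3K4me2 and H3K27me3 lists. The cells were bone marrow-derived mesenchymal stem/progenitor cells (MSPCs) of wild-type C57BL/6 mice, grown in MesenCult medium and used between passages 5 and 10. They were fixed with formaldehyde and sheared by sonication, and each target was sequenced as 1 library. The ASXL1 islands rest on 1 antibody, no library of the same antibody in Asxl1-/- cells was at hand to set beside them, and the input was not used here. The library names in the ASXL1 and H3K4me3 lists begin with the same run prefix, which the names in the H3K4me2 and H3K27me3 lists lack, and the part this plays in any overlap was not tested. With 1 library per target there is no spread between replicates and no test, so the main shares are given with a 95% exact Clopper-Pearson interval, which covers counting error only.

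ASXL1 is the mammalian relative of the fly protein Additional sex combs. It binds BAP1, the enzyme that removes ubiquitin from histone H2A and so opposes Polycomb repressive complex 1, and it has also been linked to Polycomb repressive complex 2, which places H3K27me3. H3K4me3 lies at active and poised promoters, H3K4me2 at promoters and enhancers, and H3K27me3 at genes held silent, while promoters that carry both H3K4me3 and H3K27me3 are called bivalent. In the bone marrow, stromal cells form bone, fat and cartilage and make the factors that keep blood stem cells in place.

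The autosomal ASXL1 islands covered 107 Mb and had a median width of 4800 bp, quartiles of 3000 and 7400 bp and the widest at 216 kb. H3K4me3 gave 17395 islands with a median width of 3400 bp, H3K4me2 35291 islands with a median of 3000 bp, and H3K27me3 17507 islands with a median of 8400 bp. The lists give the position of each island and no count or score, so library depth is unknown, and an island that is missing from a list is one that was not called there.

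The marker genes were checked against the stromal label. Of 20 stromal marker genes, 19 had an H3K4me3 island and 16 an ASXL1 island within 1 kb of a gene end, among them the collagen genes Col1a1 and Col1a2, the receptor gene Pdgfra and the adhesion receptor gene Cd44. The exception to H3K4me3 was Lepr, the leptin receptor gene that defines many marrow stromal cells in the animal, which had an H3K27me3 island of 5.60 kb and no ASXL1. Over all autosomal protein-coding genes the share with ASXL1 was 51.4%. Blood cell marker genes had H3K4me3 in 7 of 16 cases and ASXL1 in 4, and endothelial marker genes had each in 2 of 10. Within 5 kb, ASXL1 came to 7 and 4 of these genes. Ptprc, the pan-leukocyte gene, had neither within 1 kb.

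The promoters of 10 genes show the kinds of DNA that ASXL1 islands cover or leave free. They run from 250 bases before to 50 bases after a gene start in RefSeq GRCm38.p6, 5′ to 3′ on the gene's strand, with each CG dinucleotide in capitals. The first 4 belong to genes with the widest ASXL1 islands at a gene end. They are Birc2 at chr9:7837008-7837307 on the minus strand, Pgr at chr9:8899583-8899882 on the plus strand, Vgll3 at chr16:65814939-65815238 on the plus strand and Lmna at chr3:88503303-88503602 on the minus strand. RefSeq's table holds 2 starts for Birc2 and Lmna, of which the farther upstream is shown. The Lmna gene reaches to 88509932, so its window lies inside the gene and does not show the DNA at its outer end.
Birc2: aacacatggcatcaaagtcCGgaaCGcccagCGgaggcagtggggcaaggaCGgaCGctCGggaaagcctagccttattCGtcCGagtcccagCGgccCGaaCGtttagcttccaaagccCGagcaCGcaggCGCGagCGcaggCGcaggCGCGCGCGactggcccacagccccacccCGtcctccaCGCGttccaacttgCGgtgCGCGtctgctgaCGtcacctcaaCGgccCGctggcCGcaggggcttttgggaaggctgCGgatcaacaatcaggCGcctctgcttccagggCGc
Pgr: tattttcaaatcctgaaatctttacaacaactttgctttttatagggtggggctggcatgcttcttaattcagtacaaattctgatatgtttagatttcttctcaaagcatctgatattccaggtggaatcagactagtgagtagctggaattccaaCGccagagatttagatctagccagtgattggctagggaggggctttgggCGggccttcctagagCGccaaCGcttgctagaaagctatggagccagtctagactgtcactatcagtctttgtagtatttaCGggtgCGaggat
Vgll3: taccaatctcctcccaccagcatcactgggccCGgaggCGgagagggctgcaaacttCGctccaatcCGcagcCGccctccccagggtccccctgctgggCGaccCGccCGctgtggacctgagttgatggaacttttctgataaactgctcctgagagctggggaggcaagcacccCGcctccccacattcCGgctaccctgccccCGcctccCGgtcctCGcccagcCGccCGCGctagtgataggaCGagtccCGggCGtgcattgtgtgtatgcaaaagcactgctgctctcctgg
Lmna: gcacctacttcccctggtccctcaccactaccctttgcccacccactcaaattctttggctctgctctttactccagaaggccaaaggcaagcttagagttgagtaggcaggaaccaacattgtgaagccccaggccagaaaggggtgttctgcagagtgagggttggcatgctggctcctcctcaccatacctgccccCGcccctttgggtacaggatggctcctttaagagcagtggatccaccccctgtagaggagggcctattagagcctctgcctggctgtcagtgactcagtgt

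These promoters hold 34 CG dinucleotides at Birc2, 6 at Pgr, 19 at Vgll3 and 1 at Lmna. The next 4 belong to the genes with the widest H3K4me3 islands that overlapped neither ASXL1 nor H3K27me3, among those with a promoter entry, which leaves out Gpt and Adgre5. They are Hjurp at chr1:88277530-88277829, Fkbp14 at chr6:54597295-54597594, Cemip at chr7:84086456-84086755 and Nacc2 at chr2:26122762-26123061, all on the minus strand. Nacc2 has an ASXL1 island within 1 kb of another of its RefSeq starts, while the H3K4me3 island over this promoter overlapped none.
Hjurp: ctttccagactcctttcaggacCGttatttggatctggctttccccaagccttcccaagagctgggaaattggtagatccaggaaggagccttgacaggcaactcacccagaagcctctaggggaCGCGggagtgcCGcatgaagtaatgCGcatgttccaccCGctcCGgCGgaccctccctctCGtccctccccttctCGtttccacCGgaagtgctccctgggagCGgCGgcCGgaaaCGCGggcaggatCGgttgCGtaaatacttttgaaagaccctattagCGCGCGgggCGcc
Fkbp14: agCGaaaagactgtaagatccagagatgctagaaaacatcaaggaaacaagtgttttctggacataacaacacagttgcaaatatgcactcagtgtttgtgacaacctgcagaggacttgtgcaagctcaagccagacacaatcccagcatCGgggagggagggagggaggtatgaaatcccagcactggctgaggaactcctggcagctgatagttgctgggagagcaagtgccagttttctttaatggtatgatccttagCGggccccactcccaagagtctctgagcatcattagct
Cemip: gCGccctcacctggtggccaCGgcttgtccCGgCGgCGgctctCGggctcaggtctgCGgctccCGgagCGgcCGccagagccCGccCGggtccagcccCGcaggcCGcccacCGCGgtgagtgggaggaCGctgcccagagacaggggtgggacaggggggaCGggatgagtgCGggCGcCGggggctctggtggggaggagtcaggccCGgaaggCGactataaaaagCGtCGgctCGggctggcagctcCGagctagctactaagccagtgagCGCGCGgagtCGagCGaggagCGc
Nacc2: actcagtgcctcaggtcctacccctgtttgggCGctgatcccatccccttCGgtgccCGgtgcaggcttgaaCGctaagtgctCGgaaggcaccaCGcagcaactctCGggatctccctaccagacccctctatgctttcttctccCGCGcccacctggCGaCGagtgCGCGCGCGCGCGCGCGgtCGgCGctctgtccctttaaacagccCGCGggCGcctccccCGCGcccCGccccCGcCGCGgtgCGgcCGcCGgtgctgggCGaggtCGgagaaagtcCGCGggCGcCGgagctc

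They hold 22 CG dinucleotides at Hjurp, 3 at Fkbp14, 33 at Cemip and 39 at Nacc2. The last pair sets a ribosomal protein promoter with ASXL1 beside a homeobox promoter without it, and was chosen after the values had been seen. Rpl7a lies at chr2:26910557-26910856 on the plus strand and Nkx1-1 at chr5:33434041-33434340 on the minus strand.
Rpl7a: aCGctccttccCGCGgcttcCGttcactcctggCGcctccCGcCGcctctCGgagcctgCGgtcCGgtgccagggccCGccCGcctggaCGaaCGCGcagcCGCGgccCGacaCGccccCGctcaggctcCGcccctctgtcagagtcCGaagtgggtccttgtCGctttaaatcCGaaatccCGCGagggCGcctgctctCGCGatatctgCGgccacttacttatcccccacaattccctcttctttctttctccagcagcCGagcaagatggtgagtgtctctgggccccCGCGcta
Nkx1-1: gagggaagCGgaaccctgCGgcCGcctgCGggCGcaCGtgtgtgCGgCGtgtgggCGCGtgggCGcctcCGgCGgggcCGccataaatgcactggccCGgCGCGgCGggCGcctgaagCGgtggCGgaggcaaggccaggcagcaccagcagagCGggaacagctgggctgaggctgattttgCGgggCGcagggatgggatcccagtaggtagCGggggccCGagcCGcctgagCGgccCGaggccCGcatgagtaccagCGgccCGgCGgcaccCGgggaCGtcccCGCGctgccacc

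Rpl7a holds 33 CG dinucleotides and Nkx1-1 holds 37. Both had H3K4me3, but the Nkx1-1 end also lay in an H3K27me3 island of 141 kb.

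ASXL1 islands overlapped the H3K4 marks far more often than H3K27me3. H3K4me2 overlapped 95.3% of them by at least 1 bp (16257 of 17065, 95% interval 94.9 to 95.6), H3K4me3 overlapped 71.4% (70.8 to 72.1), and H3K27me3 overlapped 9.22% (8.79 to 9.67). By length, 73.9% of the ASXL1 bases lay under H3K4me2, 47.0% under H3K4me3 and 5.10% under H3K27me3. The autosomal islands of these marks covered 137, 66.9 and 213 Mb. The overlap expected from that cover alone was not computed, so these shares do not show whether ASXL1 avoids H3K27me3. The most frequent combination was H3K4me3 with H3K4me2, at 63.5% of islands. H3K4me2 with neither other mark accounted for 22.8%, all 3 marks together for 7.86%, and none of the marks for 4.39% (750 islands). H3K27me3 without either H3K4 mark was found at 49 islands, or 0.287%.

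The marks depended on distance from gene ends. Of the ASXL1 islands, 53.1% came within 1 kb of an end of a protein-coding gene, 11.6% lay 1 to 10 kb away, 27.3% lay 10 to 100 kb away and 7.92% lay farther. Within 1 kb, 95.7% overlapped H3K4me3 (95% interval 95.2 to 96.1) and 3.54% overlapped H3K4me2 without it. At 1 to 10 kb these shares were 56.9% and 34.7%, at 10 to 100 kb they were 42.7% and 49.6%, and beyond 100 kb they were 29.2% and 55.7%. H3K27me3 overlap was 12.4% within 1 kb and 4.29% beyond 100 kb. Islands with none of the marks made up 0.706% of the nearest class and 14.3% of the farthest. Away from gene ends, 54.0% of ASXL1 islands overlapped the body of a protein-coding gene.

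**Figure D1:**
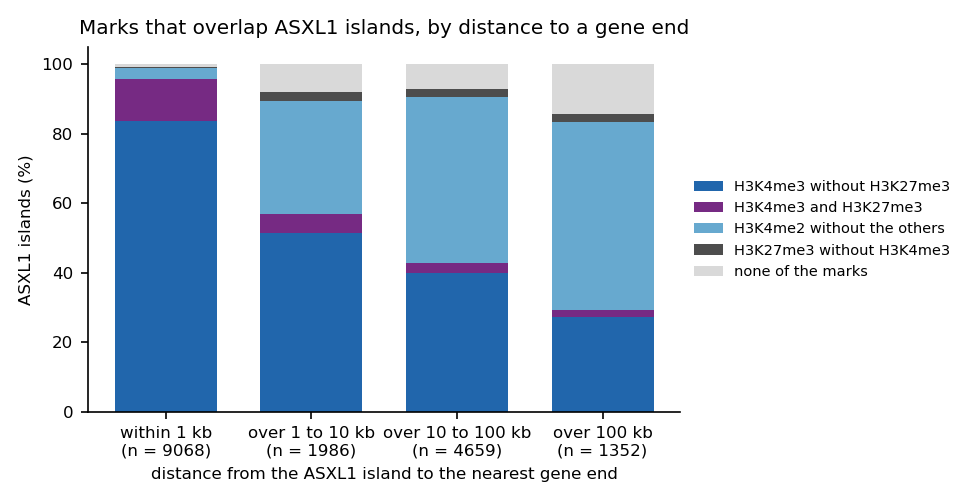
Share of ASXL1 islands (y axis, percent) in each combination of marks, by distance to the nearest protein-coding gene end (x axis, with the number of islands). Islands with H3K4me3 and no H3K27me3 make up 83.8% of the nearest class and 27.3% of the farthest, and islands with H3K4me2 alone make up 3.15% and 54.1%.

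Set beside the marks, ASXL1 stood between H3K4me3 and H3K4me2 in its placement. ASXL1 islands lay within 1 kb of a gene end in 53.1% of cases, against 62.5% of H3K4me3 islands, 35.5% of H3K4me2 islands and 30.0% of H3K27me3 islands. Their width hardly changed with distance, with a median of 4.80 kb within 1 kb of a gene end and 4.60 kb beyond 100 kb. H3K4me3 islands had medians of 4.20 and 1.80 kb in those classes, and H3K4me2 islands 4.80 and 2.0 kb. The share of ASXL1 islands with none of the marks fell with width up to 16 kb. It was 8.20% for islands of up to 2 kb, 5.92% for 2 to 4 kb and 3.44% for 4 to 8 kb. For 8 to 16 kb it was 2.02%, and over 16 kb it was 2.35%. H3K4me3 overlapped 71.5% of ASXL1 islands of up to 2 kb and 84.1% of those over 16 kb.

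Seen from the marks, the wider an H3K4-methylated island was, the more often it carried ASXL1. Of all H3K4me3 islands 75.2% carried ASXL1 (13088 of 17395, 95% interval 74.6 to 75.9). The share was 41.0% for islands of up to 2 kb, 77.6% for 2 to 4 kb and 97.1% for 4 to 8 kb. All 953 H3K4me3 islands over 8 kb carried it, for which the interval reaches down to 99.6%. H3K4me3 islands with ASXL1 had a median width of 4.0 kb, against 1.80 kb for those without it. H3K4me2 islands carried ASXL1 in 52.1% of cases, at 21.5% up to 2 kb, 83.3% for 4 to 8 kb and 100% of the 377 islands over 16 kb. A wide island can meet another by its length alone, and by bases the ordering was the same, with ASXL1 over 41.6% of the length of H3K4me3 islands of up to 2 kb and over 96.9% of the length of those over 16 kb.

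H3K27me3 islands carried ASXL1 in 8.60% of cases (1505 of 17507, 95% interval 8.19 to 9.02), and ASXL1 covered 2.55% of their length. The share was highest beside H3K4 methylation, at 39.7% of the 3038 H3K27me3 islands that overlapped H3K4me3, 13.6% of the 1333 with H3K4me2 and no H3K4me3, and 0.891% of the 13136 with neither. It was 21.3% within 1 kb of a gene end and 3.07% beyond 100 kb. Over all H3K27me3 islands the share was 3.82% up to 2 kb and 14.1% over 16 kb, and away from gene ends it was 2.23% and 5.71%. Near gene ends it lay between 13.3% and 23.2% in all 5 width classes with no order by width. By bases the share did not rise with width. ASXL1 covered 3.26% of the length of H3K27me3 islands of up to 2 kb and 2.23% of those over 16 kb. Away from gene ends it covered 1.59% and 1.29%, and near gene ends 14.4% and 2.86%.

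**Figure D2:**
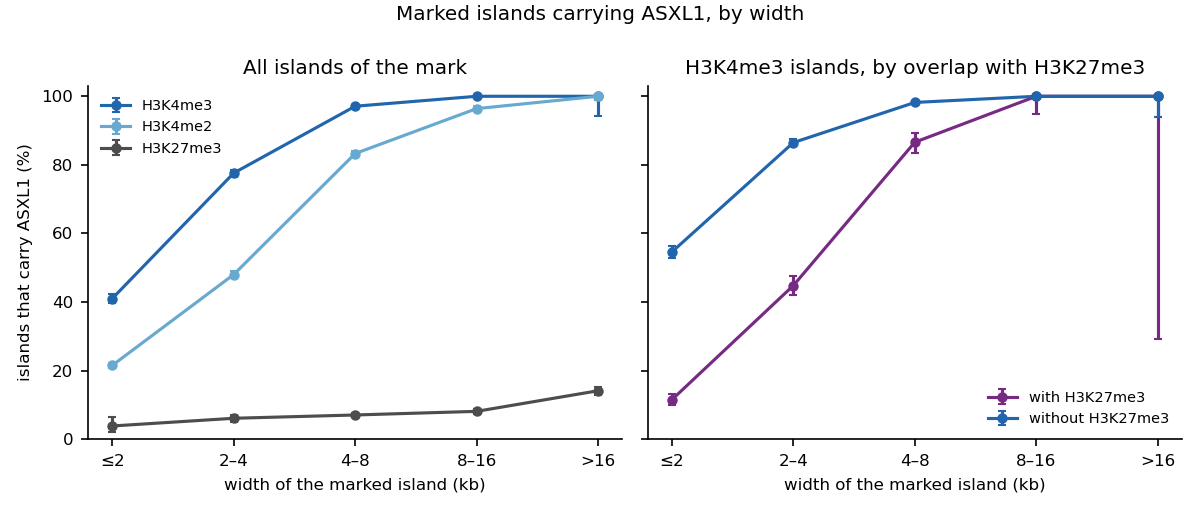
Share of marked islands that carry ASXL1 (y axis, percent) by the width of the marked island in kb (x axis), for the 3 marks on the left and for H3K4me3 islands with and without H3K27me3 on the right. Points are shares with 95% exact intervals, and the H3K4me3 lines start at 11.5% with H3K27me3 and 54.6% without it and meet at 100% over 8 kb.

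H3K27me3 went with less ASXL1 at equal H3K4me3 width. H3K4me3 islands that overlapped H3K27me3 carried ASXL1 in 38.3% of cases, against 84.3% of those that did not. The shares were 11.5% with H3K27me3 and 54.6% without it up to 2 kb, 44.8% and 86.5% for 2 to 4 kb, and 86.6% and 98.2% for 4 to 8 kb. In these 3 classes the 95% intervals did not overlap. Over 8 kb all islands carried ASXL1 whether they overlapped H3K27me3 or not. Of the 6434 H3K4me3 islands over 4 kb with ASXL1, 8.56% overlapped H3K27me3, against 45.1% of the 164 without ASXL1.

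Narrow H3K4me3 islands carried ASXL1 less often at gene ends than away from them. Up to 2 kb, 24.3% of those within 1 kb of a gene end carried it (95% interval 22.1 to 26.6), against 48.2% of those farther away (46.5 to 49.9). Among narrow islands without H3K27me3 the shares were 44.5% and 56.8%, and among those with H3K27me3 they were 10.5% and 12.8%, with overlapping intervals. The width of the H3K4me2 island around a narrow H3K4me3 island ordered them further. ASXL1 lay at 20.4% of narrow H3K4me3 islands whose H3K4me2 island was also up to 2 kb, at 68.1% where it was 4 to 8 kb, and at 96.0% of the 50 where it was over 16 kb.

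H3K4me2 islands carried ASXL1 in 75.3% of cases with H3K4me3 and in 30.9% without it. At equal width the difference remained, with 62.3% against 37.0% for 2 to 4 kb and 90.0% against 58.7% for 4 to 8 kb. H3K4me2 islands without H3K4me3 carried ASXL1 in 10.5% of cases where they overlapped H3K27me3 and in 33.2% where they did not.

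Paired ASXL1 and H3K4me3 islands had similar median widths, and single pairs went both ways. In 11056 cases 1 ASXL1 island overlapped 1 H3K4me3 island and no other. The ASXL1 island was a median of 1.07 times as wide as its partner (quartiles 0.783 and 1.63), and the centres lay a median of 500 bp apart. ASXL1 was the wider in 53.7% of pairs and the narrower in 42.1%. Across these pairs the widths had a Spearman rho of 0.43 and, on the log scale, a Pearson r of 0.41, which describe islands of 2 libraries on a 200 bp grid. Beside H3K4me3 islands of up to 2 kb, the ASXL1 island was a median of 2.75 times as wide.

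ASXL1 marked gene starts rather than far ends. Of 16457 genes with a RefSeq start, 51.4% had ASXL1 within 1 kb of a start and 15.2% within 1 kb of the opposite end. Many ends lie near another gene, so genes over 10 kb long with no other gene end within 2 kb were also counted. Of these 6958 genes, 52.7% had ASXL1 at the start and 6.47% at the far end. H3K4me3 was at 64.8% of the same starts and 3.03% of the far ends.

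Around starts with H3K4me3 and no H3K27me3, 90.6% lay in an ASXL1 island at the start itself, 42.0% at 2 kb upstream and 61.5% at 2 kb downstream. H3K4me3 covered 97.5%, 38.7% and 79.3% at those places. At bivalent starts ASXL1 covered 40.5% at the start, while H3K4me3 covered 90.2% and H3K27me3 92.0%. At starts with H3K27me3 and no H3K4me3, ASXL1 covered 0.997%. At isolated starts with H3K4me3 and no H3K27me3, the ASXL1 island reached a median of 1519 bp upstream and 2688 bp downstream, and the H3K4me3 island 1363 and 2959 bp. ASXL1 reached farther downstream than upstream at 76.4% of these starts, and H3K4me3 at 89.7%.

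**Figure D3:**
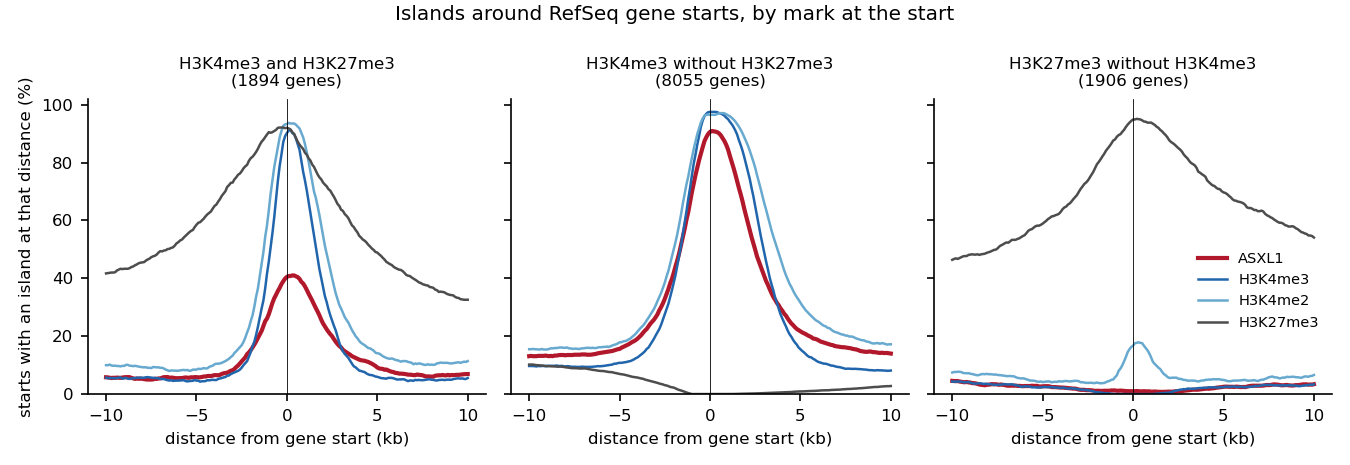
Share of gene starts covered by an island (y axis, percent) by distance from the start in kb (x axis, negative is upstream), for ASXL1 and the 3 marks. The panels hold 1894 starts with both H3K4me3 and H3K27me3, 8055 with H3K4me3 alone of the pair and 1906 with H3K27me3 alone, and ASXL1 is highest near 0 at 41.0% in the first and 90.9% in the second.

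Per gene, an ASXL1 island within 1 kb of either end was found at 10618 of 20665 autosomal protein-coding genes, or 51.4% (95% interval 50.7 to 52.1). Genes with both H3K4me3 and H3K27me3 at an end had ASXL1 in 48.4% of cases (1243 of 2566), against 92.2% of genes with H3K4me3 and no H3K27me3 at that end (9040 of 9802). H3K27me3 without H3K4me3 gave 3.47% (95 of 2735), H3K4me2 alone 38.2% (163 of 427), and none of the marks 1.50% (77 of 5135). Of the genes with ASXL1, 85.1% had H3K4me3 without H3K27me3 and 11.7% had both. Width again ordered the bivalent genes, with ASXL1 at 97 of 807 where H3K4me3 was up to 2 kb wide, 535 of 1071 for 2 to 4 kb and 509 of 583 for 4 to 8 kb. Genes that start within 1 kb of another gene's start on the opposite strand had ASXL1 in 93.5% of cases, against 47.9% of other genes. Among starts with H3K4me3 and no H3K27me3, these shares were 98.3% and 91.4%. The median H3K4me3 widths there were 5.80 and 4.60 kb, and the part that width plays in the difference was not tested.

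**Figure D4:**
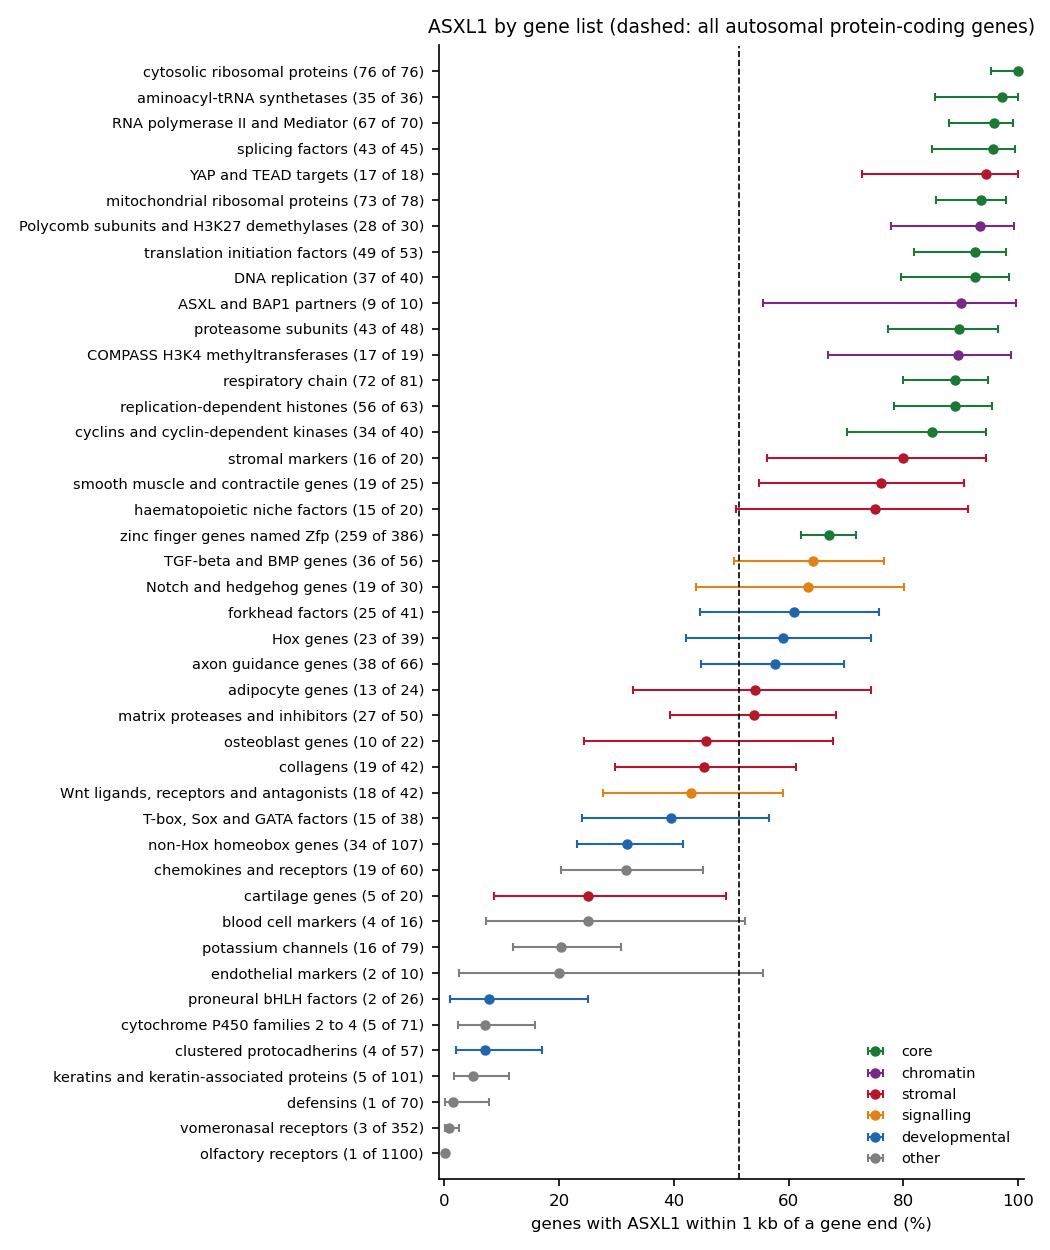
Share of genes with ASXL1 within 1 kb of a gene end (x axis, percent) in 43 gene lists (y axis, with the count of each), with 95% exact intervals and coloured by kind of list. The dashed line is the 51.4% of all autosomal protein-coding genes, with ribosomal protein genes at 100% and olfactory receptor genes at 0.0909%.

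Most genes of basic cell functions carried ASXL1. Over all 12 lists of this kind, 1 of them the zinc finger genes with 386 members, the share was 83.1% (844 of 1016, 95% interval 80.6 to 85.3), against the background of 51.4%, and 92.0% among the members with H3K4me3 and no H3K27me3, against 92.2% of all such genes. All 76 cytosolic ribosomal protein genes carried it, with islands of 35.6 kb at Rpl7a and 28.0 kb at Fau. It lay at 73 of 78 mitochondrial ribosomal protein genes, at 35 of 36 aminoacyl-tRNA synthetase genes, which charge tRNAs with amino acids, and at 67 of 70 genes of RNA polymerase II and the Mediator complex. Splicing factor genes had it in 43 of 45 cases, translation initiation factor genes in 49 of 53, genes of DNA replication in 37 of 40, proteasome genes in 43 of 48 and genes of the respiratory chain in 72 of 81.

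Members without it were of several kinds. In the respiratory chain, the heart- and muscle-type cytochrome oxidase gene Cox6a2 and the testis-type gene Cox6b2 had H3K27me3 and no ASXL1. Among proteasome genes, the thymus subunit Psmb11 and the testis subunit Psma8 had none of the marks. The immunoproteasome subunit Psmb8 had H3K4me3 and lay in an H3K27me3 island of 65.6 kb. The activator gene Psme1 had H3K4me3 of 4.0 kb and no ASXL1. So did Rfc1, the large subunit of the clamp loader of DNA replication, whose H3K4me3 island was 5.20 kb wide. With a window of 5000 bp, all 40 genes of DNA replication and all 36 aminoacyl-tRNA synthetase genes had ASXL1. Proteasome genes stayed at 43 of 48. Cyclin and cyclin-dependent kinase genes, with their inhibitors, carried ASXL1 in 34 of 40 cases. The inhibitor genes Cdkn2a and Cdkn1b had islands of 26.4 and 26.0 kb, while Cdkn1a and Cdkn1c had H3K27me3 and no ASXL1.

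Replication-dependent histone genes lie in clusters and share islands, so their 56 of 63 members with ASXL1 rest on 24 islands. Zinc finger genes named Zfp, many of them repressors of retroelements, had ASXL1 in 67.1% of cases (259 of 386). Among their 290 members with H3K4me3 and no H3K27me3 the share was 81.0%, below the 92.2% of all such genes. Many of these genes are near-copies of one another, and how reads that fit several copies were placed is not given in the sources used here.

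Genes for ASXL1's own partners and for the marks carried it too. Over the chromatin lists the share was 91.5% (54 of 59), against 51.4% of all genes. Asxl1 itself, at chr2:153345830-153404007, had an ASXL1 island of 9.0 kb that H3K4me3 covered by 91.1% and H3K4me2 fully. The exception among 10 genes for ASXL proteins and BAP1 partners was Asxl3, which had H3K27me3 of 4.40 kb and H3K4me3 of 1.80 kb. Genes for Polycomb subunits and H3K27 demethylases had ASXL1 in 28 of 30 cases, including the demethylase gene Kdm6b with 16 kb, and lacked it at Phc2 and Cbx7, both with H3K27me3. The list of COMPASS genes, which place H3K4 methylation, also held the H3K4 demethylase genes Kdm5a, Kdm5b and Kdm1a. It had ASXL1 in 17 of 19 cases, and Ash2l and Dpy30 had none of the marks at the outer RefSeq ends used here. With a window of 5000 bp all 19 had ASXL1.

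Stromal genes differed by mark much as all genes did. Over the stromal lists 58.8% carried ASXL1 (134 of 228, 95% interval 52.1 to 65.2), against 51.4% of all genes. The shares were 44.0% of the 50 bivalent members and 93.7% of the 111 with H3K4me3 and no H3K27me3, beside 48.4% and 92.2% of all genes of these kinds, and both lie near those values. Collagen genes had it in 19 of 42 cases, and Col1a2 and Col1a1, which encode the chains of type I collagen, had islands of 45.2 and 25.2 kb. All 14 collagen genes with H3K4me3 and no H3K27me3 carried ASXL1, as did 2 of 9 bivalent ones and 1 of 12 with H3K27me3 without H3K4me3. Col2a1, the cartilage collagen, had H3K4me3 of 4.60 kb within H3K27me3 of 40.6 kb and no ASXL1.

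Targets and partners of the Hippo effector YAP were the most complete of the stromal lists, at 17 of 18, with Amotl1 the exception. Of the 18, 16 had H3K4me3 and no H3K27me3, a kind of which 92.2% of all genes carried ASXL1. Contractile genes had ASXL1 in 19 of 25 cases, and the 6 without it were Cnn1, Mylk, Myl9, Myh11, Des and Myocd, of which Cnn1 alone had no H3K27me3. Of the genes for factors that support blood stem cells, 15 of 20 carried it, including Csf1 with 23.6 kb and Cxcl12 with 17.0 kb. Thpo, the thrombopoietin gene, was bivalent without it, and Csf2 and Csf3 had none of the marks.

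Among lineage genes, with the window of 1 kb, bone and fat lay near the background of 51.4% and cartilage below it. Osteoblast genes had ASXL1 in 10 of 22 cases. Runx2, the master regulator of osteoblasts, had an island of 15.8 kb and Sparc, a bone matrix gene, 10.4 kb. Dlx5, Sost and Alpl carried H3K27me3 and no ASXL1. Adipocyte genes had it in 13 of 24 cases, with 31.4 kb at Cebpb, and Fabp4 and Lipe had H3K4me3 without H3K27me3 and no ASXL1. Cartilage genes had it in 5 of 20 cases, with Sox9 at 10.4 kb, while Acan and Comp were bivalent without it. With a window of 5000 bp, osteoblast genes gave 12 of 22, adipocyte genes 18 of 24 and cartilage genes 7 of 20. All genes gave 55.7% there, so fat lay near the background at 1 kb only. With gene starts only the 3 lists gave 9 of 17, 9 of 16 and 1 of 15, against 51.4%.

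Signalling genes were near the background at 57.0% (73 of 128, 95% interval 48.0 to 65.7, against 51.4%). In the Wnt pathway 18 of 42 carried ASXL1. The coreceptor gene Lrp6 had 32.0 kb, the receptor gene Fzd7 11.4 kb and the ligand gene Wnt5a 9.40 kb, while the ligand genes Wnt1 and Wnt7b and the antagonist gene Sfrp1 were bivalent without it. In the TGF-beta and BMP group 36 of 56 carried it, led by the inhibitory Smad gene Smad7 with 34.0 kb and Smad3, a signal transducer of TGF-beta, with 31.2 kb. The ligand genes Bmp2 and Gdf7 and the antagonist gene Chrd lacked it. Notch and hedgehog genes had it in 19 of 30 cases, including Notch1 with 18.8 kb and its target Hes1 with 17.8 kb, but not the ligand genes Dll1 and Dll4.

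Developmental regulators lay below the background at 37.7% (141 of 374, 95% interval 32.8 to 42.8, against 51.4%), with 122 bivalent members and 108 with H3K27me3 without H3K4me3. Hox genes, which set position along the body axis, had ASXL1 in 23 of 39 cases over 15 islands. Hoxa9 had an island of 32.4 kb. Hoxb7 and Hoxb8 had no ASXL1 at their ends and lay in an H3K27me3 island of 161 kb, of which ASXL1 covered 1.73%, at Hoxb9 among other places. Other homeobox genes had it in 34 of 107 cases. All 15 with H3K4me3 and no H3K27me3 carried it, among them the limb genes Prrx2 with 38.8 kb and Shox2 with 18.8 kb, beside 18 of 48 bivalent ones and 1 of 42 with H3K27me3 without H3K4me3.

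T-box, Sox and GATA genes had ASXL1 in 15 of 38 cases, with all 10 that had H3K4me3 and no H3K27me3 carrying it. Forkhead genes had it in 25 of 41 cases, including 12 of 16 bivalent ones. Proneural bHLH genes had it in 2 of 26 cases, Atoh8 and Bhlhe22, and axon guidance genes in 38 of 66. The clustered protocadherins are neuronal adhesion genes in tandem arrays. Of their 57 members 13 had H3K4me3 and no H3K27me3, and 4 of those 13 carried ASXL1, against 92.2% of all such genes. The H3K4me3 islands at the 9 without ASXL1 were 0.80 to 3.80 kb wide, and among all such genes the share was 39.4% up to 2 kb and 87.8% for 2 to 4 kb. With a window of 5000 bp, 21 of the 57 had ASXL1, and of the 14 with no neighbouring gene end 0 did at 1 kb. These 4 were Pcdhgc3, Pcdhgc4, Pcdhgc5 and Pcdhgb5 on 3 islands, while Pcdhga6 had H3K4me3 of 3.80 kb and none.

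Olfactory receptor, vomeronasal receptor and defensin genes, families used in other tissues, were nearly free of ASXL1 and of H3K4me3. ASXL1 was found at 1 of 1100 olfactory receptor genes, Olfr1393, at 3 of 352 vomeronasal receptor genes and at 1 of 70 defensin genes, against 51.4% of all genes. Keratin genes had it in 5 of 101 cases, with 49 members under H3K27me3 without H3K4me3, and cytochrome P450 genes of families 2 to 4 in 5 of 71. Of 79 potassium channel genes 16 had ASXL1, 10 of them among 29 bivalent members and none among 32 with H3K27me3 without H3K4me3. Of 60 chemokine and receptor genes 19 had ASXL1, and Ccl2 and Ccl7, which attract monocytes, shared an island of 49.4 kb. The receptor gene Cxcr4 was bivalent and had none.

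CG content of the promoter went with ASXL1. The ratio of CG dinucleotides observed to those expected from the base content was computed in the 300 bases at each start. Starts with ASXL1 had a median of 22 CG dinucleotides, against 4 at starts without it. ASXL1 lay at 7.48% of starts with a ratio of up to 0.2 and at 90.8% of those above 1.0. Among starts with H3K4me3 and no H3K27me3 the shares were 76.1% (95% interval 70.1 to 81.3) and 98.1% (97.1 to 98.8). The H3K4me3 islands were also wider at CG-rich starts, with a median of 5.60 kb above 1.0 against 3.50 kb up to 0.2. With the width held at 2 to 4 kb, ASXL1 lay at 64.9% of starts with a ratio of up to 0.2 (51.1 to 77.1) and at 94.8% of those above 1.0 (91.0 to 97.3). Starts with H3K27me3 and no H3K4me3 had ASXL1 in 0 of 35 cases above a ratio of 1.0, for which the exact upper bound is 10.0%.

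**Figure D5:**
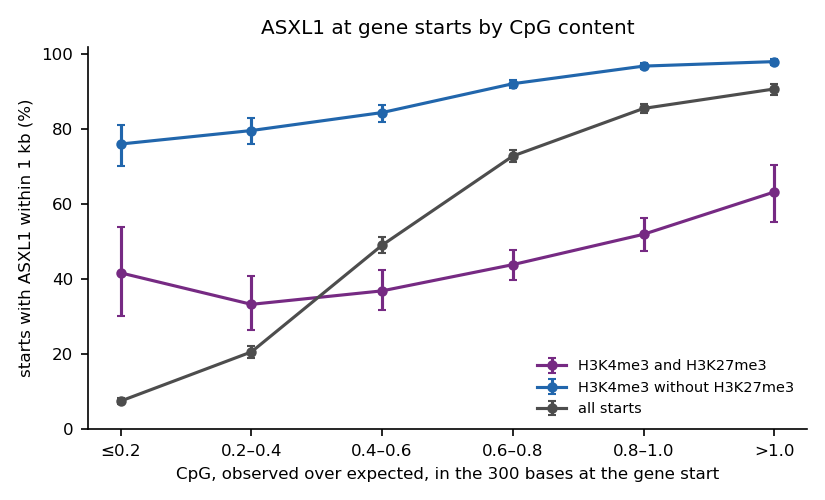
Share of gene starts with ASXL1 within 1 kb (y axis, percent) by the observed over expected CG ratio of the 300 bases at the start (x axis), with 95% exact intervals. Bivalent starts lie between 33.3% and 63.3%, starts with H3K4me3 and no H3K27me3 between 76.1% and 98.1%, and all starts between 7.48% and 90.8%.

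Short sequence motifs were counted in the same windows on both strands, as letters only. The ETS-type motif CCGGAAG was in 12.3% of all 16457 windows. Among starts with H3K4me3 and no H3K27me3 it was in 21.8% with ASXL1 (95% interval 20.8 to 22.7), against 12.5% without it (9.96 to 15.4). Among bivalent starts it was in 10.9% with ASXL1 (8.88 to 13.1), against 4.27% without it (3.12 to 5.69). The motif holds a CG, so CG-rich windows offer it more often. Within the single CG class of 0.8 to 1.0, the shares at bivalent starts were 11.9% with ASXL1 and 3.89% without it, the one of 4 CG classes in which those intervals did not overlap, and at starts with H3K4me3 and no H3K27me3 they were 25.9% (24.2 to 27.6) and 15.3% (8.40 to 24.7), whose intervals just meet. In the class of 0.6 to 0.8 the shares at bivalent starts were 10.6% and 5.16%, and the second pair was 21.6% and 19.2%, again with overlapping intervals. The NRF1-type motif GCGCATGCG was in 2.45% of all windows, and at starts with H3K4me3 and no H3K27me3 in 4.51% with ASXL1 (4.05 to 5.01) and 2.30% without it (1.26 to 3.83). It holds several CGs, and within CG classes these shares came close, with 3.48% and 3.30% for 0.6 to 0.8 and 5.64% and 4.71% for 0.8 to 1.0. The intervals overlapped in all 4 CG classes above 0.4. The AP-1 motif TGACTCA was in 4.59% of all windows and, at those starts, in 3.13% with ASXL1 and 3.61% without it. The TATA box letters TATAAA were in 13.5% of all windows, and at those starts in 6.34% with ASXL1 and 8.21% without it, again with overlapping intervals. CCAAT, which holds no CG, went both ways. At those starts it was in 39.4% with ASXL1 (38.3 to 40.5) and 45.2% without it (41.2 to 49.2). At bivalent starts it was in 37.7% (34.5 to 41.1) and 30.9% (28.1 to 33.8). The GC box GGGCGG was in 68.4% and 54.4% at those with H3K4me3 and no H3K27me3, with overlapping intervals in all 4 CG classes. For the YY1 and E-box motifs the intervals overlapped at both kinds of start.

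The widest ASXL1 islands at gene ends reached far past H3K4me3. The widest, at chr9:7811401-8027200, was 216 kb long, covered ends of the apoptosis inhibitor genes Birc2 and Birc3, of Cfap300 and of Yap1, and was covered by H3K4me3 over 19.4% of its length and by H3K4me2 over 41.4%. The next was the 89.2 kb island at Pgr, the progesterone receptor gene, of which H3K4me3 covered 8.52% and H3K27me3 31.6%. Vgll3, which encodes a TEAD cofactor, had 76.2 kb. Lmna, the lamin A/C gene, had 73.2 kb, of which H3K4me2 covered 87.4%. Frmd8 followed with 68.8 kb, Galnt2 with 66.6 kb, Cwc22 with 64.8 kb, Lrsam1 with 63.0 kb, Zfp469 with 60.4 kb and Coro7 with 58.8 kb. H3K4me3 cover ranged from 8.52% at Pgr to 85.8% at Frmd8, so these islands were not of one kind. Cwc22 lies in a duplicated segment that varies in copy number among mouse strains, and the part this plays in its width was not tested. The 3 widest islands, at Birc2, Pgr and Vgll3, lie in stretches of chromosomes 9 and 16 where ASXL1 islands extended beyond the marks, and copy number there was not tested.

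At the other end stood H3K4me3 islands at 676 genes that overlapped neither ASXL1 nor H3K27me3, beside 9802 genes with H3K4me3 and no H3K27me3. The widest was 7.80 kb, at chr1:88272601-88280400, over the start of Hjurp, whose protein loads the centromeric histone CENP-A. Gpt, an alanine aminotransferase gene, had 7.20 kb, Fkbp14, which encodes a prolyl isomerase of the endoplasmic reticulum, 7.00 kb, Adgre5, an adhesion receptor gene, 6.80 kb, and Cemip, which encodes a protein of hyaluronan breakdown, 6.60 kb. Nacc2, Sgsh, Hid1, Abtb1 and Dpp3 had between 6.60 and 5.80 kb. H3K4me2 covered between 70.0% and 100% of each of these 10 islands.

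The widest H3K27me3 islands differed in whether ASXL1 lay at a gene end inside them. With ASXL1 at the end, the widest was the 188 kb island at Aatf and Lhx1, of which ASXL1 covered 4.14%, followed by 161 kb at Hoxb9, 138 kb at Zpbp2 and 122 kb at Ak8. ASXL1 covered between 1.30% and 7.61% of the 8 widest islands of this kind, and the ASXL1 islands at these genes were 1.80 to 6.60 kb wide. Without any ASXL1, the widest was the 179 kb island at Chrna4, a nicotinic acetylcholine receptor gene, followed by 175 kb at Fgd5, 170 kb at Slc35f3 and 168 kb at Grm4. Lmo2 and Irf8, transcription regulator genes of blood cells, lay in islands of 145 kb each without ASXL1.

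ASXL1 islands at a gene end that overlapped no H3K4me3 were found at 295 genes, beside 10618 genes with any ASXL1 island at an end. The widest lay at Ptpn14 and Smyd2 with 42.2 kb, Acox3 with 38.2 kb, the enamel protease gene Mmp20 with 37.2 kb, and Nenf with 35.4 kb. H3K27me3 covered 31.2% of the Mmp20 island. That island lies in the stretch of chromosome 9 where ASXL1 islands extended beyond the marks, and copy number there was not tested. H3K4me2 covered between 17.7% of the island, at Mmp20, and 86.1%, at Banp, over the 8 widest of these islands. Such genes could still have H3K4me3 at an end, outside the island. Among the genes named for the 8 widest, Ptpn14, Acox3, Nenf, Banp and Abtb2 had it, and Mmp20, Fancc and Btbd9 did not.

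Far from gene ends, 6011 ASXL1 islands lay over 10 kb from any protein-coding gene end. Of those at 10 to 100 kb, 56.9% overlapped the body of a protein-coding gene, as did 37.1% of those farther away. By nearest gene end, the 6011 islands fell to 2788 genes, of which 709 had at least 3. Pde4d, a phosphodiesterase gene, had 24. Myc, the growth regulator, had 23 that summed to 249 kb, and Foxp1, a forkhead factor gene, had 23 that summed to 216 kb. Med13l followed with 20. The island farthest from any end was 1.80 kb wide at chr14:82064801-82066600, 2042 kb from Olfm4, and overlapped H3K4me2. Of the next 4, all on chromosome 2 and nearest to Zeb2, each overlapped H3K4me2 and 1 also H3K4me3. The widest island over 10 kb from an end was 91.4 kb, at chr16:65938401-66029800, and the next was 88.8 kb near Cebpb, which overlapped 5 H3K4me3 islands. Nearness does not show which gene such an island acts on.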

How the data were processed

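Chromatin immunoprecipitation of ASXL1, H3K4me3, H3K4me2 and H3K27me3 was sequenced in 1 library each of wild-type MSPCs. The deposited lists hold island positions only. The submitters' processing notes name BWA for alignment, SICER 1.1 for island calling and the mm10 build, per the labels. The authors' calling settings and control are not given in the sources read, so how thresholds shaped island width or number is unknown, and depth per library is unknown. SICER joins enriched 200 bp windows across gaps, and the smallest gap left was 800 bp for ASXL1 and H3K27me3 and 400 bp for the H3K4 marks.

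Island overlap (at least 1 bp) and distance to the outer ends of RefSeq GRCm38.p6 protein-coding genes were computed with Python 3.11.15, numpy 2.4.6 and pandas 2.3.3, with exact Clopper-Pearson intervals from scipy 1.17.1, and were tested on simulated islands with known overlap. A gene carried a target if an island came within 1000 bp of either end, and was bivalent if H3K4me3 and H3K27me3 came to the same end. Gene starts and promoters were known for 16457 of 20665 genes, none on chromosome 18. The lists of the Asxl1-/- cells and the X chromosome were left out. Genes were named by the widest island of each kind, overall and within each list. The members and the 43 gene lists were chosen with earlier results of these data known, and the splits of promoters by H3K4me3 width and CG class, of narrow H3K4me3 islands and the 1 Mb windows were added after values had been seen.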

Additional observations from a re-analysis of the deposited data

How the results depend on the processing

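No paired analysis was possible because each target has 1 library. Where 50% of the island had to be covered, ASXL1 islands had H3K4me3 in 57.4%, H3K4me2 in 84.4%, H3K27me3 in 6.23% and none of the marks in 14.6%. ASXL1 then lay on 71.8% of H3K4me3 islands (35.8% with H3K27me3, 80.5% without it), 47.2% of H3K4me2 and 2.09% of H3K27me3 islands. With islands of at least 2000 bp only, the shares of ASXL1 islands were 65.1% with H3K4me3, 89.9% with H3K4me2 and 9.35% with no mark, and ASXL1 lay on 81.1% of H3K4me3 islands (49.2% with H3K27me3, 87.2% without it), 60.9% of H3K4me2 and 7.90% of H3K27me3 islands. With the wider 50% of each list they were 56.1%, 86.2%, 6.09% with H3K27me3 and 12.9% with no mark, and ASXL1 lay on 57.3% of H3K4me3 islands (42.8% with H3K27me3, 58.4% without it), 46.4% of H3K4me2 and 5.64% of H3K27me3 islands. These settings leave fewer islands that can overlap. Leaving out each autosome in turn, the H3K27me3 share of ASXL1 islands lay between 8.76% and 9.43%.

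ASXL1 lay at 49.1% of all genes, 44.5% of bivalent genes and 91.5% of genes with H3K4me3 and no H3K27me3 with a window of 0 bp. With 5000 bp the shares were 55.7%, 63.1% and 93.3%, and 4.66% of genes with H3K27me3 without H3K4me3. With gene starts only, bivalent genes gave 44.9% and genes with H3K27me3 without H3K4me3 1.73%. Among genes with no other gene end within 2 kb, the shares were 40.4% of all, 43.3% of bivalent and 90.4% of genes with H3K4me3 and no H3K27me3, so bivalent genes lay above all genes there, as they did with 5000 bp and with islands of at least 2000 bp. With islands of at least 2000 bp they were 48.3%, 55.4% and 89.4%, and 4.65% with H3K27me3 without H3K4me3. With the X chromosome added, the share of all genes was 50.4%. In all of these settings, bivalent genes and H3K4me3 islands with H3K27me3 had the lower share beside those without H3K27me3. With gene starts only, osteoblast genes, matrix proteases and forkhead factors changed sides of the share of all genes, of 42 lists that could be run, and of 43 lists osteoblast genes, collagens and Wnt genes did so among genes with no neighbouring end. The causes were not tested.

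Absence of an island cannot be told apart from too few reads, because the lists hold no counts, and with 1 library per target no share has a spread between cultures.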

Other observations

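ASXL1 islands were dense in a few places. In 2465 windows of 1 Mb, ASXL1 covered a median of 2.08%, and 26.6% at the 99th percentile. The densest was chr19:5000001-6000000 at 49.6%, where H3K4me2 covered 47.7% and H3K4me3 36.3%, and it holds the stromal gene Cd248. The window chr9:7000001-8000000, which holds matrix metalloprotease genes, was covered by ASXL1 over 35.7% but by H3K4me2 over 11.9% and H3K4me3 over 5.28%. The next window, chr9:8000001-9000000 with Yap1, Trpc6 and Pgr, had 31.8% for ASXL1, 6.96% for H3K4me2 and 3.60% for H3K4me3.

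ASXL1 islands with none of the marks made up 8.91% of ASXL1 islands on chromosome 16, 7.68% on chromosome 13 and 7.08% on chromosome 3, the 3 highest, a median of 4.01% over the autosomes and 0.965% on chromosome 19, the lowest. Those on chromosome 16 were wide in places. Between 70 and 80 Mb of chromosome 16, 16 of 42 ASXL1 islands had no mark, with a median width of 11.8 kb, and between 60 and 70 Mb 14 of 31, with a median of 14.4 kb. All islands without marks had a median of 3.50 kb. The widest, at chr16:79984801-80046200, was 61.4 kb long and lay 894 kb from Tmprss15, the nearest gene. The median ASXL1 width ranged from 3.20 kb on chromosome 9 to 6.20 kb on chromosome 15, and the share of H3K4me3 islands with ASXL1 from 70.8% on chromosome 10 to 79.4% on chromosome 5. The cause of these local differences, copy number in the cultures included, was not tested.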
